A study of Homo sapiens with 11 samples.

Results

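The control liver tumours are 4 RNA-seq libraries, of 11 in the series, that carry the control hairpin shCTRL. They were grown from PANC1 LM3, a liver-metastatic line of the 3rd generation derived from PANC1, an established human pancreatic ductal carcinoma line, with the genotype given as WT. Per the labels, 500000 cells were put into the spleen on day 1 and tumours that had formed in the liver were collected on day 21. The other 7 libraries carry the hairpins shNPTX1_3 or shNPTX1_4 and are not described here. The labels name 1 line and no clone, do not name the host, and do not say whether the 4 libraries are 4 animals.

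The 4 control libraries entered the table as 1 group mean of normalised counts per gene, so no value of a single library and no standard deviation can be given. A level below is that mean in CPM, counts scaled so that every column has the same sum, and levels of different genes are compared as CPM per kilobase (kb) of the longest transcript, while plain CPM gives a gene's share of the counts and its side of the detection minimum. A gene counts as detected at 1 CPM or more. All 23434 rows of the table were used in the sum, and 23327 of them have a usable gene name.

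Pancreatic ductal carcinoma starts from cells of the exocrine pancreas and spreads mostly to the liver, where tumour cells meet hepatocytes, sinusoidal endothelium and stellate cells. Its cells can hold an epithelial state, marked by keratins and E-cadherin, or a mesenchymal state, marked by vimentin and factors such as ZEB1, and many lines hold features of both. In patients, tumours are often divided into a classical group with gastrointestinal differentiation genes and a basal-like group with squamous keratins. A bulk library averages over all cells, and fewer cells of a type and less RNA per cell cannot be told apart in it.

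Reads worth 1 count in 1 library leave fixed steps in the low values of the mean, and these gave size factors from 0.696 to 2.20, or about 13000000 to 41200000 reads on genes per library. Of 2108 low values, 83.8% were sums of whole reads at a tolerance of 2e-05 normalised counts. The floor, 3 reads shared by the 4 libraries in proportion to their size factors, lies at 0.0283 CPM and covers counting error only. A read of a deeper library adds less to the mean, so a value just below the floor can hold more than 3 reads. As an error, the standard error of the log2 fold change in the authors' deposited table is given, because it contains the error of the control mean where group means are fitted independently. Its median in the authors' deposited table was 1.14 below 1 CPM, 0.210 from 1 to 10 CPM, 0.113 from 10 to 100 CPM and 0.0969 from 100 CPM, so levels under 1 CPM are loosely measured.

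Of the named rows, 15487 were detected, 10277 reached 10 CPM, 2313 reached 100 CPM and 57 reached 1000 CPM. Among 18883 protein-coding genes, 13750 were detected, or 72.8%, and 30.5% reached 10 CPM per kb. Each count of detected list members below is to be read beside that 72.8%. The median over all protein-coding genes was 3.49 CPM per kb and over detected genes of all kinds 7.14 CPM per kb, with a 99th percentile of 275 CPM per kb. A row at 0 was found for 2173 names, and 3626 names lay at or under the floor. Protein-coding genes held 91.0% of the counts and long intergenic noncoding RNAs 5.51%.

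**Figure D1:**
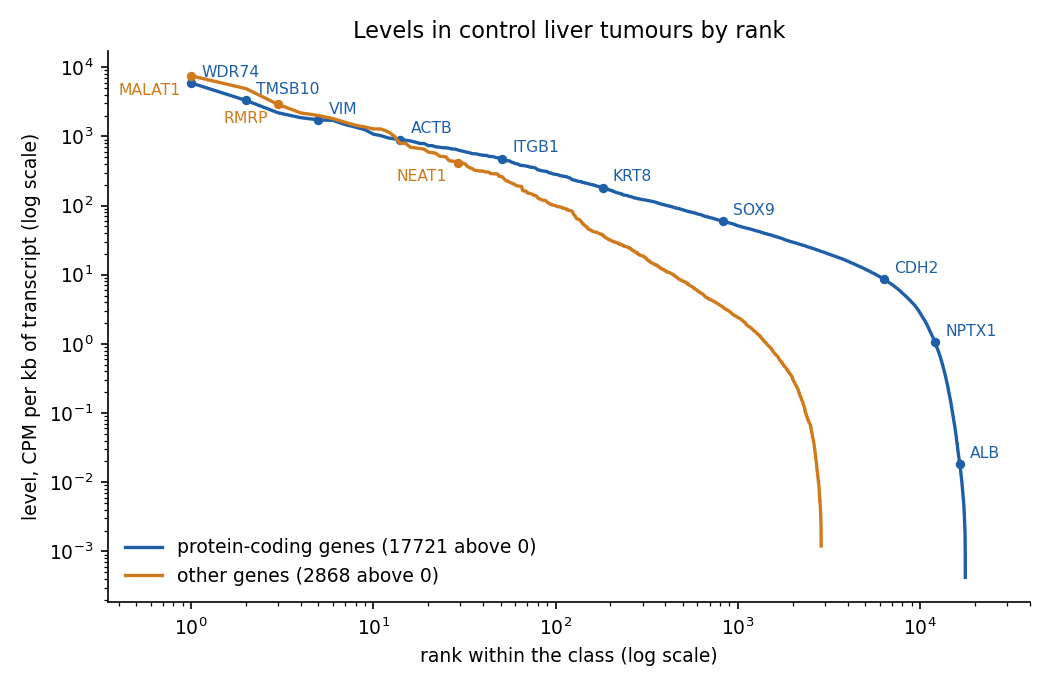
Level of each gene in CPM per kb of transcript against its rank within its class, both on log scales, for protein-coding genes (blue) and all other genes (orange), with some genes marked. Levels run from 7500 CPM per kb for MALAT1 through 1732 for VIM and 182 for KRT8 to 0.0185 for ALB.

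Nuclear noncoding RNAs and genes of the cytoskeleton, of protein synthesis and of protein folding led the control tumours. MALAT1, a nuclear noncoding RNA of splicing speckles, stood first with 40049.6 CPM, or 4.00% of all counts. NEAT1, the scaffold of nuclear paraspeckles, held 9506 CPM. The 10 highest rows together held 8.78% of the counts, the 100 highest 19.3% and the 1000 highest 49.2%. It took 1041 rows to hold 50% of the counts.

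Apart from WDR74 and ZNF277, described further on, the next rows by CPM were EEF1A1 (8268 CPM), which brings aminoacyl-tRNA to the ribosome, AHNAK (4762 CPM), a giant scaffold protein below the plasma membrane, and VIM (3236 CPM), the intermediate filament of mesenchymal cells. DST (2852 CPM) links filaments to hemidesmosomes and microtubules, PTMA (2676 CPM) encodes prothymosin, and ZFP36 (2427 CPM) encodes an RNA-binding protein that shortens the life of cytokine messengers. Per kb the order was different, because long genes such as AHNAK (253 CPM per kb) and DST (127 CPM per kb) gather reads along their length. TMSB10, a small actin-binding peptide, reached 3312 CPM per kb, PTMA 2192, EEF1A1 1862 and VIM 1732 CPM per kb. RPS16 (1247 CPM per kb) and RPL41 (1025 CPM per kb) were the highest ribosomal protein genes, followed by RPS18 (921 CPM per kb) and RPS27 (858 CPM per kb). ANXA2 (1076 CPM per kb), a membrane-binding annexin, NPM1 (953 CPM per kb), a nucleolar chaperone, ACTB (899 CPM per kb), S100A6 (881 CPM per kb) and HSP90AB1 (825 CPM per kb) completed the coding genes among the 30 highest.

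Places next to each other in this order are mostly not separated. Of 29 neighbouring pairs among the 30 highest genes, 28 differed by less than 2 combined standard errors of the authors' deposited table, and of 59 such pairs among the 60 highest coding genes 57 did. Several of the 30 are small RNA genes shorter than a usual read pair, such as SNORD24 (75 bases, 4895 CPM per kb), SNORD97 and SNORA24, whose values per kb are uncertain for that reason. RMRP (2900 CPM per kb) and RPPH1 (1445 CPM per kb), the RNA parts of the ribonucleases MRP and P, and RNU12 (1598 CPM per kb), a small nuclear RNA of the minor spliceosome, are also noncoding. ACTG1P20, a processed copy of actin gamma, and LUZP6, which lies on the transcript of MTPN, may share reads with those genes.

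WDR74 and ZNF277 each share an exon with a small nuclear RNA. WDR74, a factor of ribosome assembly, was listed at 10275 CPM or 5919 CPM per kb, and ZNF277 at 3785 CPM or 1707 CPM per kb. In the GENCODE annotation an exon of WDR74 holds RNU2-2P, a gene of the spliceosomal RNA U2, and an exon of ZNF277 holds RN7SKP187, a copy of the abundant nuclear RNA RN7SK with 297 of 326 aligned bases identical, or 91.1%, each on the same strand as its host. The 6 coding neighbours of WDR74 lay between 0.0152 and 39.4 CPM per kb and those of ZNF277 between 0.00529 and 26.7 CPM per kb. The authors' deposited table gives WDR74 a log2 standard error of 0.40 and ZNF277 0.21, wider than the 0.10 of VIM. Small RNA genes lay in exons, on either strand, of 7 of the 30 highest rows by CPM (23.3%). Among all 15487 detected rows this held for 199, or 1.28%. Without entries named by an Rfam model, which in MALAT1, NEAT1 and KCNQ1OT1 are models of the same long RNAs, the count was 5. Among detected rows it was then 153 of 15487, or 0.988%. This alternative was chosen after seeing the data. How reads of such genes were assigned was not tested.

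Bases 21 to 50 of the 191 bases of RNU2-2P, which lies in that exon of WDR74, are given from the GENCODE transcripts. They are written as DNA, with the 6 letters that pair with the intron's branch point in capitals.
RNU2-2P: ctaagatcaagtGTAGTAtctgttcttatc

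The tumours carried a mixed state, with vimentin above simple-epithelium keratins and both well above the median gene. Of 14 mesenchymal markers 11 were detected, with a median of 6.70 CPM per kb. VIM reached 1732, SPARC 90.6, S100A4 76.2, AXL 46.9, ZEB1 30.5 and SNAI1 10.9 CPM per kb. SPARC is a collagen-binding matrix protein, S100A4 a calcium-binding protein of motile cells, AXL a receptor kinase, and ZEB1 and SNAI1 repress E-cadherin. TWIST1 (0.0486 CPM), SNAI2 (0.693 CPM) and PRRX1 (0.930 CPM) were not detected.

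Of 15 pan-epithelial markers 10 were detected, with a median of 1.33 CPM per kb. The paired keratins KRT8 (182 CPM per kb) and KRT18 (185 CPM per kb), which form 1 filament together, stood at nearly equal levels. The log2 ratio of KRT8 over KRT18 was -0.03 with a combined standard error of 0.39 from the authors' deposited table. That near match depends on the length used. KRT8 and KRT18 lay at 96.6 and 156 CPM per kb of merged exons, and at 289 and 243 per kb of coding length. KRT19, a ductal keratin, followed at 48.9 CPM per kb, then EPCAM at 14.3, CLDN7 at 9.10 and CLDN4 at 6.43 CPM per kb. KRT7 (0.591 CPM), ST14 (0.571 CPM), ESRP1 (0.273 CPM) and OVOL1 (0.298 CPM) were among those not detected. VIM exceeded KRT8 by 3.25 on the log2 scale per kb with a combined standard error of 0.34, and CDH2, or N-cadherin, exceeded CDH1, or E-cadherin, by 1.67 with 0.46, both from the authors' deposited table. Only 9 of 55 keratin genes were detected.

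**Figure D2:**
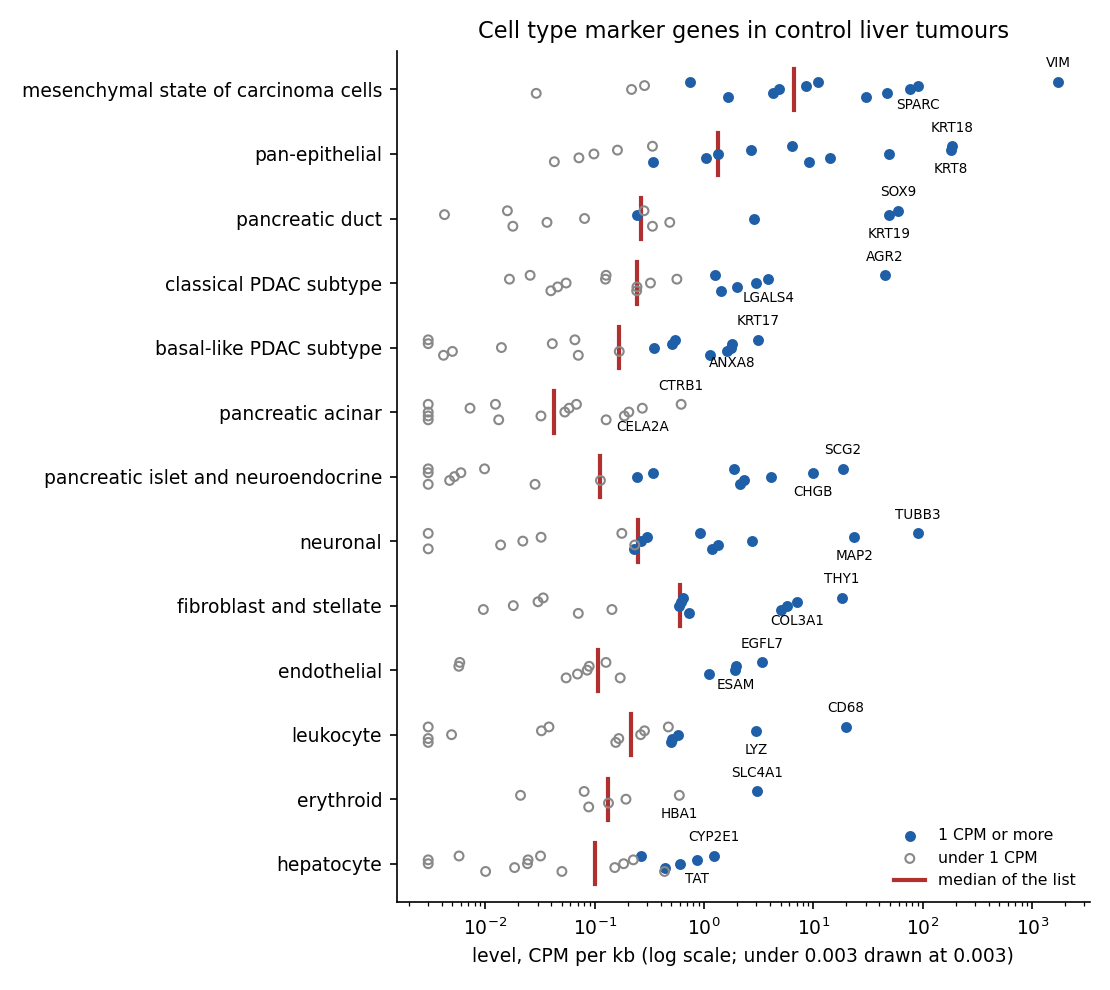
Level of each marker gene in CPM per kb (log scale) for 13 cell type lists, with detected genes filled, genes under 1 CPM open, and the median of each list as a bar. Mesenchymal markers have the highest median, 6.70 CPM per kb, and none of the 16 acinar markers is filled.

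Duct genes were detected in part and acinar genes not at all. Of 12 duct markers 4 were detected, led by SOX9 (59.1 CPM per kb), the transcription factor of duct and progenitor cells, and KRT19, with MUC1 at 2.86 CPM per kb and ONECUT2 at 0.245 CPM per kb. CFTR (0.0259 CPM), SPP1 (0.0251 CPM) and PDX1 (0.202 CPM) were under 1 CPM. None of 16 acinar markers was detected, and the highest, CTRB1, lay at 0.617 CPM per kb. PTF1A, SPINK1, PNLIP and CELA3A were listed at 0.

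Of 17 classical markers of the patient subtypes 6 were detected, or 9 at a minimum of 0.5 CPM, led by AGR2, a protein disulfide isomerase of mucus-forming cells, at 45.2 CPM per kb, then LGALS4 (3.88), LYZ (2.99), ERBB3 (1.99), CEACAM5 (1.44) and CLDN18 (1.26 CPM per kb). GATA6, the factor most used to define the classical group, was not detected at 0.0547 CPM per kb, while GATA4 lay at 5.35 CPM per kb, a log2 difference of 6.61 per kb with a combined standard error of 0.44 from the authors' deposited table. Of 17 basal-like markers 8 were detected, all at low levels, with KRT17 (3.10), ANXA8 (1.81), AREG (1.75) and KRT15 (1.61 CPM per kb) first. KRT5 (0.179 CPM), KRT14 (0.279 CPM) and KRT6A (0.0945 CPM) were under 1 CPM.

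Among 24 matched factors of pancreas and endoderm 13 were detected. HES1 (168 CPM per kb), the Notch target that holds progenitors back from differentiation, was first, followed by SOX9, RBPJ (11.9), NR5A2 (9.98), GATA4 (5.35) and FOXA2 (4.402 CPM per kb). HNF4A (0.808 CPM), NKX6-1 (0.0331 CPM) and CDX2 (0.317 CPM) were not detected. Of 22 factors of epithelial-mesenchymal transition 15 were detected, with ETS1 (82.1), FOSL1 (70.9), ZEB1 (30.5), TCF3 (15.3), SNAI1 (10.9) and RUNX1 (5.75 CPM per kb) on top. ZEB1 exceeded ZEB2 by 5.35 and SNAI1 exceeded SNAI2 by 5.26 on the log2 scale per kb, with combined standard errors of 0.21 and 0.57 from the authors' deposited table.

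HOX genes, which mark position along the body axis, were expressed by cluster. In the HOXB cluster 9 of 10 genes were detected and in HOXC 8 of 9, against 4 of 11 in HOXA and 0 of 9 in HOXD. HOXB2 to HOXB9 formed an unbroken run of 8 detected genes between 15.9 CPM per kb for HOXB5 and 35.9 CPM per kb for HOXB6, while HOXB1 at its end lay at 0.122 CPM. HOXC9 (49.1 CPM per kb) and HOXC10 (42.6 CPM per kb) were the highest HOX genes of all. The highest HOXD gene per kb, HOXD4, lay at 0.531 CPM.

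Some neuronal and endocrine genes were detected, but in both lists the share detected was below the 72.8% of all coding genes. The list medians were 0.248 CPM per kb for neuronal and 0.113 for islet and neuroendocrine markers, against 3.49 for all coding genes. TUBB3 (89.7 CPM per kb), a tubulin of neurons and of many carcinoma lines, and MAP2 (23.6 CPM per kb), a microtubule-binding protein, led 9 detected of 16 neuronal markers. NEFL and ELAVL4 were listed at 0, and STMN2 (0.0489 CPM) and GAP43 (0.0614 CPM) were near the floor. Of 17 islet and neuroendocrine markers 8 were detected, with SCG2 (18.7), CHGB (9.94), SYP (4.10) and NEUROD1 (2.33 CPM per kb) first. The hormone genes INS and PPY were listed at 0, GCG and SST at 0.00607 CPM each, below the floor, and CHGA at 0.233 CPM, while the hormone genes IAPP (2.11 CPM per kb) and GHRL (1.89 CPM per kb) were detected.

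Markers of the host organ and of other tumour-dwelling cells were low, as read on human gene names. Of 18 hepatocyte markers 5 were detected, and the highest, CYP2E1, lay at 1.22 CPM per kb. ALB, the most abundant messenger of hepatocytes, lay at 0.0418 CPM and AHSG and APOA2 were listed at 0. Endothelial markers counted 4 of 12, with EGFL7 (3.36) and ESAM (1.96 CPM per kb) first and VWF at 0.0516 CPM and CDH5 at 0.367 CPM. Leukocyte markers counted 5 of 16, with the lysosomal gene CD68 at 19.8 CPM per kb and PTPRC, which all leukocytes carry, at 0.497 CPM per kb. CD3E and FCGR3A were listed at 0. Of 7 erythroid markers only SLC4A1 was detected (3.05 CPM per kb). The mouse build mm39 is named in the submitters' processing notes, but the sources do not say how reads of host cells were treated, and these values do not count host cells.

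Of 14 fibroblast and stellate markers 8 were detected. THY1 (18.3), COL3A1 (7.04), COL1A1 (5.76) and ACTA2 (5.05 CPM per kb) were first, yet PDGFRA (0.0630 CPM), DCN (0.129 CPM), LUM (0.432 CPM), PDGFRB (0.404 CPM) and FAP (0.0842 CPM) were under 1 CPM. COL1A1 exceeded its partner chain COL1A2 by 2.97 on the log2 scale per kb with a combined standard error of 0.89 from the authors' deposited table. Whether these transcripts came from tumour cells was not tested.

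Integrins are pairs of an alpha and a beta chain that bind cells to matrix. ITGB1, the beta chain shared by most collagen and laminin receptors, reached 477 CPM per kb, the 19th highest CPM of all rows at 1806 CPM. Among 18 alpha chains 15 were detected, and 3 of them stood above the rest: ITGAV (117 CPM per kb), of vitronectin and fibronectin receptors, and ITGA3 (86.2) and ITGA6 (75.04 CPM per kb), of laminin receptors. ITGA3 and ITGA6 differed by 0.20 on the log2 scale with a combined standard error of 0.21 from the authors' deposited table and cannot be put in order. ITGA5 (11.6) and ITGA2 (9.87 CPM per kb) followed at a distance. Of the beta chains after ITGB1, ITGB5 (22.2), ITGB4 (6.92) and ITGB3 (6.85 CPM per kb) came next, and ITGB6 was at 0.639 CPM.

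All 20 focal adhesion genes were detected, with a median of 49.0 CPM per kb. ACTN4 (356 CPM per kb), an actin crosslinker, led, followed by CAV1 (124), VCL (112), FLNA (80.7), TNS3 (77.3) and CD151 (74.4 CPM per kb). ACTN4 exceeded its sister gene ACTN1 by 2.62 on the log2 scale per kb with a combined standard error of 0.13 from the authors' deposited table. The lowest 2 were the kinase SRC (2.04 CPM per kb) and FERMT1 (2.06 CPM per kb). CD44, the hyaluronan receptor, led the other adhesion molecules at 194 CPM per kb, and 19 of those 20 were detected, among them CD9 (84.3), EPHA2 (67.9), MCAM (52.5), ICAM1 (41.5) and L1CAM (33.1 CPM per kb). VCAM1 lay at 0.730 CPM.

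Genes of cell-to-cell junctions stood at uneven levels. The catenins CTNNA1 (102), CTNND1 (58.3) and CTNNB1 (50.3 CPM per kb), which tie cadherins to actin, stood well above every classical cadherin in the list, where CDH2 was highest at 8.60 CPM per kb. The desmosomal plaque gene DSP (40.6 CPM per kb) exceeded the desmosomal cadherin DSG2 (14.2 CPM per kb) by 1.52 on the log2 scale with a combined standard error of 0.17 from the authors' deposited table. PKP4 (29.3), PERP (21.99) and JUP (19.9 CPM per kb) lay between, DSC2 was at 4.43 CPM per kb, and DSG1 and DSG4, desmogleins of stratified skin, were below the floor at 0.0249 and 0.00675 CPM. Of 20 tight junction genes 17 were detected, led by the plaque gene TJP1 (29.5), F11R (19.5), OCLN (18.2), CLDN12 (14.3), PARD3 (9.75) and PATJ (9.25 CPM per kb). CLDN2 (0.0445 CPM), CLDN6 (0.344 CPM) and TJP3 (0.659 CPM) were not detected.

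**Figure D3:**
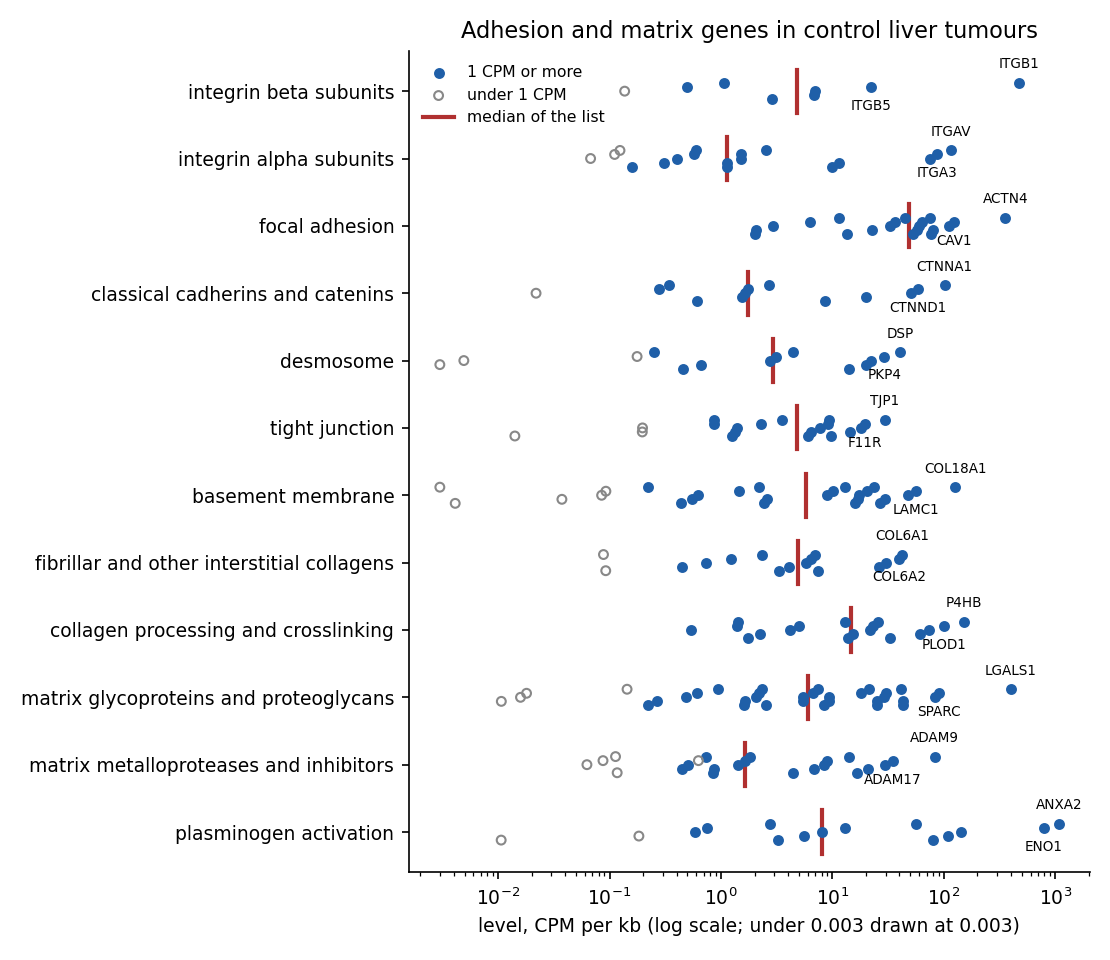
Level of each adhesion and matrix gene in CPM per kb (log scale) by list, with detected genes filled, genes under 1 CPM open, list medians as bars and the highest members named. Focal adhesion genes have the highest median of these lists, 49.0 CPM per kb, and ITGB1 and LGALS1 stand apart within theirs at 477 and 400 CPM per kb.

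Basement membranes are sheets of laminin, type IV collagen, nidogen and perlecan. Of 26 genes of these sheets 21 were detected. COL18A1 (127 CPM per kb), the source of endostatin, was first, followed by LAMC1 (56.7), LAMB2 (47.4), NID1 (29.5), AGRN (26.5) and DAG1 (23.6 CPM per kb). A laminin needs 1 alpha, 1 beta and 1 gamma chain, and among the alpha chains LAMA5 reached 13.1 CPM per kb, LAMA4 2.61, LAMA1 0.434, and LAMA3 (0.989 CPM) and LAMA2 (0.823 CPM) were not detected. LAMC1 exceeded LAMA5 by 2.12 on the log2 scale per kb with a combined standard error of 0.14 from the authors' deposited table. COL4A2 (16.1 CPM per kb) and COL4A1 (10.1 CPM per kb), which lie head to head and build 1 trimer, differed by 0.67 with 0.40 in the authors' deposited table. FREM1 (0.00675 CPM) was below the floor and FREM2 was at 2.43 CPM per kb.

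Interstitial collagens were led by type VI. Of 16 genes 14 were detected, with COL6A1 (42.2), COL6A2 (39.8), COL5A2 (30.2), COL11A1 (26.4), COL5A1 (7.39) and COL3A1 (7.04 CPM per kb) first. The 3rd chain of type VI, COL6A3, lay at 1.236 CPM per kb, 5.10 below COL6A1 on the log2 scale with a combined standard error of 0.22 from the authors' deposited table. Enzymes that hydroxylate and link collagen were all detected, 18 of 18, with P4HB (151), PLOD1 (101), PLOD2 (73.8), P4HA1 (60.5), the collagen chaperone SERPINH1 (33.1) and P3H1 (25.5 CPM per kb) on top. Among the lysyl oxidases LOXL2 led at 15.3 CPM per kb and LOX was at 1.38 CPM per kb.

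Of 34 matrix glycoproteins and proteoglycans 30 were detected. LGALS1, a galactose-binding lectin, reached 400 CPM per kb, and SPARC (90.6), CCN1 (83.1), TGFBI (43.3), SDC1 (42.8) and CCN2 (41.7 CPM per kb) followed. FN1, the fibronectin gene often used as a mesenchymal marker, was at 1.64 CPM per kb, below the median of all coding genes. DCN, FBN2 (0.119 CPM), SPP1 and LUM were not detected. The errors of some are wide: the authors' deposited table gives 0.66 for THBS1 (9.36 CPM per kb), 0.38 for TNC (29.1 CPM per kb) and 0.43 for TGFBI.

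Membrane-bound proteases led the metalloprotease list. Of 23 metalloproteases and inhibitors 18 were detected, led by the shedding enzymes ADAM9 (82.6) and ADAM17 (35.0), then MMP14 (29.5), a membrane-bound collagenase, the inhibitor TIMP2 (20.7), ADAM10 (16.6) and MMP2 (14.1 CPM per kb). MMP14, TIMP2 and MMP2 are the parts of 1 activation complex on the cell surface, and TIMP2 exceeded TIMP1 by 1.31 on the log2 scale per kb with a combined standard error of 0.23 from the authors' deposited table. MMP3 (0.176 CPM), MMP7 (0.706 CPM), MMP10 (0.199 CPM), MMP13 (0.318 CPM) and TIMP4 (0.103 CPM) were not detected. In plasminogen activation 13 of 15 genes were detected. The plasminogen-binding proteins ANXA2 (1076), ENO1 (790) and S100A10 (141 CPM per kb) were first, and the activator PLAU (80.5) and TFPI (56.5 CPM per kb) were among the next. PLAU exceeded its receptor PLAUR by 3.86 on the log2 scale per kb with a combined standard error of 0.27 from the authors' deposited table.

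The cytoskeleton list held 1.8996% of all counts, with 31 of 34 genes detected and a median of 151 CPM per kb. After TMSB10 and VIM came ACTB (899), TMSB4X (707), ACTG1 (610) and TUBA1B (599 CPM per kb). The 3 not detected were KRT7, KRT81 (0.381 CPM) and KRT86 (0.538 CPM).

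All 23 genes of glucose transport and glycolysis were detected and held 0.743% of the counts. ENO1 (790), GAPDH (495), PKM (415), LDHA (402), LDHB (282) and TPI1 (251 CPM per kb) were first, and PGK1, a later enzyme of the same route, was at 42.6 CPM per kb, below the early enzymes PFKP (66.0) and GPI (48.7 CPM per kb). The transporters SLC2A1 (4.38) and SLC2A3 (1.89) and the hexokinase HK2 (2.40 CPM per kb) were low, and HK1 exceeded HK2 by 2.94 on the log2 scale per kb with a combined standard error of 0.22 from the authors' deposited table. LDHA, which favours lactate, exceeded LDHB by 0.51 with 0.17 in the authors' deposited table. In the reverse pathway FBP1 was listed at 0 and PCK1 lay at 1.14 CPM, but the glycogen phosphorylase PYGB reached 55.7 CPM per kb.

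Genes of mitochondrial oxidation were also detected. All 24 genes of the tricarboxylic acid cycle and its entry were detected with a median of 25.9 CPM per kb, led by SDHB (70.1), SDHA (61.1), MDH1 (49.2), IDH3B (43.2), CS (41.9) and SDHD (36.6 CPM per kb). Pyruvate carboxylase, PC, lay at 3.29 and the subunit SDHC at 1.30 CPM per kb. None of the 15 mitochondrially encoded genes has a row in the table, so respiratory chain subunits of the mitochondrial genome were not analysed here. Of 16 genes of fatty acid oxidation and ketones 13 were detected, with HADHA (78.4), ACADVL (73.7), ACAT1 (73.1), HADHB (42.8), ACADM (39.4) and CPT1A (34.8 CPM per kb) first.

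All 23 genes of fatty acid and sterol synthesis were detected with a median of 28.98 CPM per kb. ELOVL5 (139), SCD (66.0), CYP51A1 (50.1), FDPS (47.0) and HMGCS1 (42.9 CPM per kb) were among the highest, and ELOVL6 was last at 0.195 CPM per kb. Of the amino acid genes, all 17 of the glutamine, aspartate and proline list and all 15 of the serine, glycine and one-carbon list were detected. The transporter SLC38A2 (187 CPM per kb) led the first, and the next included GLUD1 (62.4), OAT (51.2), SLC38A1 (50.2) and SLC3A2 (39.4 CPM per kb). MAT2A (135 CPM per kb), which makes the methyl donor, led the second list, and PHGDH, which starts the making of serine, was at 7.33 CPM per kb.

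Genes of peroxide removal and iron storage were far above the median gene. All 23 genes of iron and redox balance were detected, with PRDX1 (313), the ferritin chains FTH1 (276) and FTL (156), SOD1 (183), GPX4 (124) and TXN (114 CPM per kb) highest. The iron exporter SLC40A1 lay at 0.548 CPM per kb with an error of 1.13 in the authors' deposited table. Of 20 hypoxia response genes 18 were detected, with DDIT4 (92.4), P4HA1, HIF1A (44.8), ADM (32.2), ANGPTL4 (24.5) and VEGFA (23.8 CPM per kb) first, while CA9 (0.523 CPM) and EGLN3 (0.827 CPM) were under 1 CPM.

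Cell cycle genes lay well above the median coding gene. Of 28 cell cycle genes 27 were detected with a median of 28.2 CPM per kb. CCND1, the G1 cyclin, reached 137 CPM per kb and exceeded CCND2 by 10.28 on the log2 scale with a combined standard error of 0.47 from the authors' deposited table. TOP2A (129), PCNA (94.8), CCNB1 (91.8), MCM3 (61.4) and MKI67 (60.9 CPM per kb) followed. CDK6 (42.2 CPM per kb) exceeded CDK4 (26.9 CPM per kb) by 0.65 with 0.22 in the authors' deposited table.

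Of 20 genes often mutated in pancreatic cancer 19 were detected. SF3B1 (114), GNAS (72.8), MYC (67.6), ATM (51.7) and ARID1A (28.8 CPM per kb) were highest, and SMAD4 was at 11.4 CPM per kb. CDKN2A, the gene of the cell cycle inhibitor p16 and of ARF, was listed at 0, against a floor of 0.0283 CPM. Its neighbour CDKN2B lay at 0.120 CPM per kb and MTAP, on the other side, at 2.55 CPM per kb. Beyond MTAP lie the type I interferon genes, which are silent in most cells, and IFNE was the highest of them at 0.509 CPM per kb. KLHL9 (4.48 CPM per kb) among them, FOCAD (3.41) beyond them and DMRTA1 (1.36) and CAAP1 (4.66 CPM per kb) on the CDKN2B side were detected. PANC1 is known to lack CDKN2A, and the copy number of these tumours was not measured.

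Of 33 growth factors 28 were detected. MDK, or midkine, a heparin-binding factor, reached 136 CPM per kb, then CCN1 (83.1), CCN2 (41.7), ADM (32.2), ANGPTL4 (24.5), VEGFA (23.8), PDGFC (17.5) and PDGFB (16.2 CPM per kb). BTC (0.0496 CPM), FGF19 (0.0635 CPM), BDNF (0.369 CPM) and EGF (0.947 CPM) were among those not detected. Among ligands of the epidermal growth factor receptor HBEGF (14.3 CPM per kb) exceeded AREG (1.75 CPM per kb) by 3.03 on the log2 scale with a combined standard error of 0.47 from the authors' deposited table. The growth factor list leaves out FGF23, a hormone of bone that acts on the kidney, which led the 22 FGF genes at 261 CPM and 86.5 CPM per kb, against 8.99 CPM per kb for TIGAR, the gene beside it. The authors' deposited table gives FGF23 an error of 0.20. TIGAR was named after its value was seen.

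Of 29 cytokines and chemokines 22 were detected. CCL2, which draws monocytes, was first at 237 CPM per kb, then MIF (101), the neutrophil chemokine CXCL1 (65.5), LIF (34.1), CXCL2 (31.8), CCL5 (24.8), CXCL5 (15.02) and IL18 (10.2 CPM per kb). IL6 was at 0.705, IL1B at 0.669 and TNF at 0.611 CPM per kb, each near 1 CPM. CXCL10 (0.0243 CPM), CXCL11 (0.0259 CPM) and IL33 (0.0135 CPM) were below the floor, and CXCL12 (0.287 CPM) and CCL20 (0.255 CPM) were not detected. CXCL14, outside the list, was 3rd among all chemokines at 56.4 CPM per kb.

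Among 24 ligands and antagonists of the TGF-beta family 16 were detected, with TGFB2 (20.6), FSTL1 (20.4), BMP6 (9.96), NOG (9.91), GDF15 (4.66), FSTL3 (4.53), TGFB3 (3.12) and TGFB1 (2.97 CPM per kb) first. TGFB2 exceeded TGFB1 by 2.80 on the log2 scale per kb with a combined standard error of 0.24 from the authors' deposited table. INHBA (0.908 CPM) and BMP4 (0.197 CPM) were not detected. Of 23 WNT ligands and secreted regulators 13 were detected, and the inhibitors DKK3 (45.0) and DKK1 (31.1 CPM per kb) stood above every WNT gene, where WNT5B (9.83) and WNT7B (6.98 CPM per kb) were highest. WNT5B exceeded WNT5A by 4.28 with 0.29 in the authors' deposited table.

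Axon guidance and neuropeptide genes counted 19 of 28. SEMA3C, a secreted semaphorin, reached 135 CPM per kb and exceeded SEMA3A (12.1 CPM per kb) by 3.47 on the log2 scale with a combined standard error of 0.13 from the authors' deposited table. AGRN (26.5), STC1 (11.7), EDN1 (9.52), NTN1 (9.27), VGF (7.79) and NTS (5.49 CPM per kb) followed, and SLIT2 was listed at 0 while SLIT3 was at 4.43 CPM per kb. Among secreted protease inhibitors and serpins 16 of 22 were detected: SPINT2, an inhibitor of the enzymes that activate HGF, reached 156 CPM per kb against 0.339 for SPINT1, and SERPINH1 (33.1), SERPINB6 (24.5) and SERPINB1 (16.2 CPM per kb) were among the next. SLPI (0.0192 CPM) and PI3 (0.0189 CPM) were below the floor. Of 19 complement and acute phase genes 13 were detected, and the surface inhibitors CD59 (68.2) and CD46 (46.7), which protect cells from complement, exceeded C3 (0.220 CPM per kb) and CFB (2.11 CPM per kb).

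The pentraxin NPTX1, whose knockdown the rest of the series studies, was weakly expressed in these controls, and 9 of 14 pentraxins and AMPA receptor partners were detected. It lay at 5.49 CPM and 1.07 CPM per kb with an error of 0.24 in the authors' deposited table, NPTX2 at 1.52 and the receptor NPTXR at 2.86 CPM per kb. NPTX1 and NPTX2 differed by 0.50 on the log2 scale with a combined standard error of 0.37 from the authors' deposited table and cannot be put in order.

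To set secreted factors beside their receptors, 44 known pairs were listed, chosen after the levels had been seen. Both genes were detected in 34 of the 44 pairs, where 72.8% of all coding genes, taken singly, were detected. Because of how the pairs were chosen, this count describes only them. In 4 pairs only the ligand was: PDGFA, PDGFB and PDGFC, whose receptors PDGFRA and PDGFRB sit on stromal cells, and CSF1, whose receptor CSF1R sits on macrophages. In 6 only the receptor was: ACVR1B for INHBA, BMPR1A for BMP4, CXCR4 for CXCL12, CCR6 for CCL20, ROBO1 for SLIT2 and CD44 for SPP1. ROBO1 (33.2 CPM per kb) and CD44 were high beside ligands at 0 and 0.0251 CPM. JAG1 (42.8) and NOTCH2 (33.7), LIF (34.1) and LIFR (29.7), and SEMA3C and PLXND1 (28.8 CPM per kb) were the pairs in which both partners were highest.

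**Figure D4:**
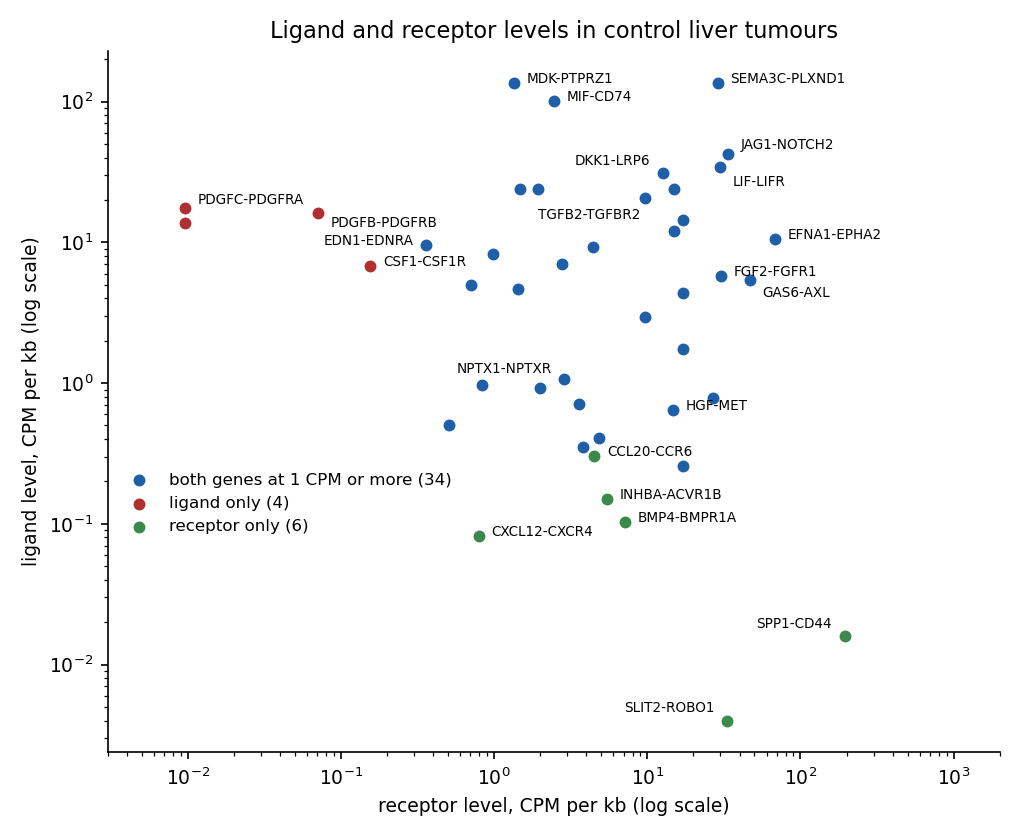
Ligand level against receptor level in CPM per kb, both on log scales, for 44 pairs, with blue where both, red where only the ligand and green where only the receptor reached 1 CPM. SLIT2, listed at 0, is drawn at the foot of the axis, and the 3 pairs of the PDGF receptors stand at the far left.

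Of 35 receptor tyrosine kinases 28 were detected. EPHA2 (67.9), AXL (46.9), RYK (39.4), FGFR1 (30.3), EPHB4 (26.7) and DDR1 (17.5 CPM per kb) were highest, EGFR was at 17.2 and MET at 14.7 CPM per kb, and ALK (0.326 CPM) and TEK (0.0272 CPM) were not detected. Antigen presentation counted 15 of 20 genes. CALR (280), B2M (221), HLA-E (90.4), TAPBP (75.8) and HLA-B (59.5 CPM per kb) belong to the class I route, while the class II genes HLA-DRA (0.0425 CPM) and HLA-DRB1 (0.0308 CPM) lay near the floor. CD274, which encodes PD-L1, was at 0.480 CPM. Of 14 genes named MUC 8 were detected, led by MUC20 (3.12), MUC16 (3.07) and MUC1 (2.86 CPM per kb), and MUC4 was at 1.06 CPM.

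By symbol family, cytosolic ribosomal proteins held 2.696% of the counts, with 82 of 85 genes detected and a median of 223 CPM per kb. Zinc finger genes named ZNF held 1.97% through their number, 458 of 505 detected with a median of 4.04 CPM per kb, and 3785 CPM of that are ZNF277. Solute carriers held 0.933% with 266 of 375 detected, proteasome subunits 0.486% with 37 of 39 and mitochondrial ribosomal proteins 0.249% with 75 of 75. After their values were seen, translation factors (2.13%), heat shock proteins (1.2004%) and hnRNP genes (0.872%) were added. Of 367 olfactory receptors 13 were detected and of 38 chemokines 13.

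One stretch of chromosome 19 had the highest median level among windows of 11 neighbouring coding genes. In the order of 18848 coding genes, the window of 11 genes from IFNL1 to TIMM50 had a median of 202 CPM per kb, the highest of 18618 windows. The next separate window, in the histone genes of chromosome 6, had 108 CPM per kb, the median over windows was 3.81 and the 99th percentile 24.9 CPM per kb. These neighbours were named after their values were seen. SAMD4B (140), PAF1 (656), MED29 (202), ZFP36 (1359), PLEKHG2 (200), RPS16 (1247), SUPT5H (355) and TIMM50 (214 CPM per kb) formed a run of 8 adjacent genes that each exceeded 100 CPM, a level that 11.96% of coding genes reached.

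PAF1 and SUPT5H are elongation factors of RNA polymerase II, MED29 is a Mediator subunit, TIMM50 a mitochondrial import gene, and RPS16 was the highest ribosomal protein gene. Nearby lie ACTN4 (356), HNRNPL (326), EIF3K (380), FBL (545), PSMC4 (789) and AKT2 (216 CPM per kb). Among them lie genes at lower levels, such as SIRT2 (29.9), MAP3K10 (26.1), MRPS12 (21.8) and PAK4 (10.3 CPM per kb). Weakly expressed tissue genes such as IFNL1 (0.177 CPM) and LGALS13 (0.0230 CPM) lie there as well. Against family members elsewhere in the genome, AKT2 exceeded AKT1 by 2.85 and PSMC4 exceeded PSMC3 by 3.08 on the log2 scale per kb. The combined standard errors from the authors' deposited table were 0.12 and 0.13. AKT2 and PSMC4 were picked after their high levels were seen, so these differences describe only those genes. Lower neighbours such as PAK4, MAP3K10 and SIRT2 were not compared in this way. With windows of 7 and of 15 genes the same stretch was again first, at 355 and 140 CPM per kb. A region of this arm of chromosome 19 is known to be amplified in PANC1, and the copy number of these tumours was not measured.

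**Figure D5:**
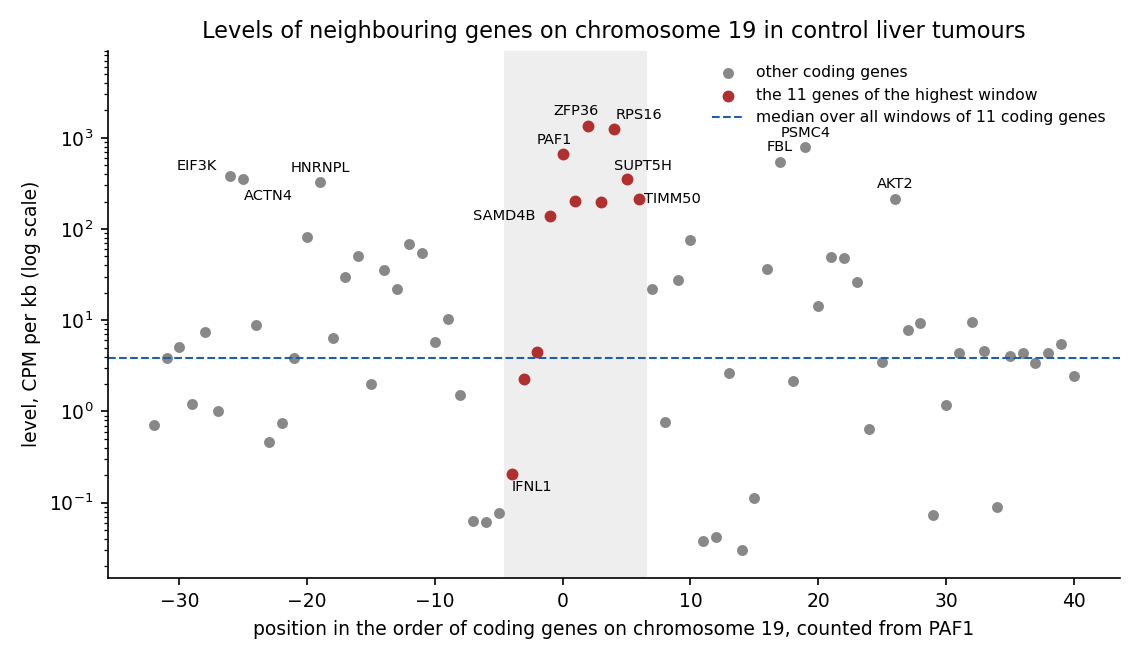
Level in CPM per kb (log scale) of coding genes in their order on chromosome 19, counted from PAF1, with the 11 genes of the highest window in red on grey and the median over all windows as a dashed line. The run from SAMD4B to TIMM50 lies between 140 and 1359 CPM per kb. ACTN4 (356), FBL (545), PSMC4 (789) and AKT2 (216) lie to either side, among many genes at lower levels.

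Promoters were compared by level class for 15204 coding genes with a RefSeq sequence, 250 bases before to 50 after the start, on the build GRCh38.p14. The GC box letters GGGCGG, on either strand, lay in 21.7% of promoters of genes at 0, 43.8% above 0 to under 1, 67.6% from 1 to 10, 72.3% from 10 to 100 and 70.7% from 100 CPM per kb, against 59.7% of all promoters. Median GC content over these classes was 47.7%, 58.3%, 65.0%, 65.3% and 63.3%, and the ratio of observed to expected CpG went from 0.217 to 0.869. TATAAA, on either strand, lay in 28.3%, 14.0%, 5.50%, 5.18% and 14.5%, against 9.35% of all. Without histone genes the highest class held it in 10.8%, and with classes by CPM in place of CPM per kb in 6.403%. The median coding length was 885 bases in the highest class per kb and 1425 bases in the class below it. CCAAT, on either strand, lay in 38.4% of promoters at 0 and 47.0% from 100 CPM per kb, against 36.5% of all, and in 37.2% from 100 CPM. The share from the highest class over that at 0 was thus 1.22 per kb and 0.969 by CPM, on either side of 1. Each motif was searched on its own, so 1 stretch can count for several, and a match describes letters, not a site.

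The 100 bases before the start are printed, 5′ to 3′ on the gene's strand, for 4 of the highest coding genes and for 2 genes under 1 CPM, with these motifs, on either strand, in capitals. VIM lies at chr10:17228141-17228240 on the plus strand, TMSB10 at chr2:84905556-84905655 on the plus strand, ANXA2 at chr15:60397987-60398086 on the minus strand and PTMA at chr2:231708425-231708524 on the plus strand. ALB lies at chr4:73404187-73404286 on the plus strand and KRT5 at chr12:52520395-52520494 on the minus strand.
VIM: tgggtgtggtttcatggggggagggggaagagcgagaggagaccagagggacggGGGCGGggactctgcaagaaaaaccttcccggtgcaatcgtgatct
TMSB10: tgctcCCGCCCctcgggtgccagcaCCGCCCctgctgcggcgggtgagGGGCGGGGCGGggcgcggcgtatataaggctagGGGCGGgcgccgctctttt
ANXA2: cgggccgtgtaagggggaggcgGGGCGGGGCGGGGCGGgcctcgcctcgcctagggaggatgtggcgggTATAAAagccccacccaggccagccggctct
PTMA: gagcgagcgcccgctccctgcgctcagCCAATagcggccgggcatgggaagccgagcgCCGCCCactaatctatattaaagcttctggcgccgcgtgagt
ALB: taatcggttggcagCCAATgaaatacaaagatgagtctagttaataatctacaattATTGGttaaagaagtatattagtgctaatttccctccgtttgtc
KRT5: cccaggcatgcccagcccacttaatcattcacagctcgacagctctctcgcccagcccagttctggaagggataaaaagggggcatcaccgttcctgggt

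In these 6 windows ANXA2 held TATAAA and a run of GC boxes, TMSB10 held GC boxes on both strands, VIM held 1 and PTMA held CCAAT and a GC box. ALB, at 0.0418 CPM, held CCAAT on each strand and no GC box, and KRT5, at 0.179 CPM, held none of the 3 motifs. GC content over the full 300 bases was 76.0% for ANXA2, 75.3% for TMSB10, 64.7% for PTMA, 48.0% for VIM, 56.3% for KRT5 and 33.3% for ALB, so VIM, 5th among coding genes per kb, lay below the median of its class. The windows shown were chosen by gene and do not stand for their classes. Of 6 others read the same way, ITGB1 and ENO1 held a GC box. In their 100 bases EEF1A1 and KRT8 held none of the 3 motifs, KRT8 at a GC content of 50.7%. H1-2 (51.7%) and GATA6 (66.7%) held CCAAT and no GC box.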

How the data were processed

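The 4 shCTRL libraries entered as 1 column of the deposited table. Its values are a signal: the authors' mean, over the group, of read counts scaled by a size factor per library, per the file headers and the values. Per the submitters' processing notes the tools were DESeq2 1.24, MultiQC 1.9, featureCounts 2.0.0 and STAR 2.7.6a, with the builds mm39 and hg19 and no roles stated. No source used here names the strand setting. The authors' log2 fold change was not used, only its standard error, and the deposited score and p-value columns of the knockdown comparison were not used.

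The column was scaled to CPM of its sum and divided by the longest GENCODE release 29 basic transcript (GRCh38), in place of the planned RefSeq length, which spans introns. Of 23434 rows, 107 without a usable name (0.402% of counts) were kept in the sum and left unnamed, and 22695 names matched the annotation. No test was run. Scripts were tested on simulated data and used Python 3.11.15, pandas 2.3.3, numpy 2.4.6 and matplotlib 3.10.9.

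Genes named are the 30 highest per kb, the 10 highest by CPM, up to 6 highest of each list (8 for secreted factors), up to 3 of each family, list members under 1 CPM and NPTX1 with its list. Other genes named, such as lower list members, partners in ratios, receptors and neighbours, were named after their values were seen. The members and lists were chosen with earlier results of these data known.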

Additional observations from a re-analysis of the deposited data

How the results depend on the processing

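Detected genes numbered 16509 at a minimum of 0.5 CPM, 14285 at 2 CPM and 15632 when scaled without the 10 highest rows, against 15487. The 10 highest rows held 3.47% of the counts without MALAT1, NEAT1, WDR74 and ZNF277, against 8.78%, an alternative chosen after seeing the data. Of the 60 highest coding genes per kb, 33 were shared with the order by coding length, 53 with merged exon length and 58 with the mean over all libraries, so the order depends on the length used. Detected basal-like markers numbered 5 at 2 CPM. At 0.5 CPM, detected erythroid markers numbered 2, hepatocyte 8, leukocyte 8, classical 9 and duct 7, and hepatocyte markers numbered 2 at 2 CPM. The CCAAT ratio was 0.969 with classes by CPM, against 1.22. Leaving out mitochondrially encoded rows changed nothing, since the table used has none.

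Leaving out each replicate was not run, because only the group mean was at hand. No paired analysis was possible because no result comes from a test and the libraries have no values of their own. Levels near the floor of 0.0283 CPM rest on few reads.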

Other observations

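Some genes outside the lists were high, and were named after their values were seen. TMEM45A, a membrane protein gene, reached 735 CPM per kb, and EPHA7, an ephrin receptor, 31.3 CPM per kb. The imprinted noncoding RNA H19 lay at 58.6 CPM per kb. COL9A3, a chain of a cartilage collagen, lay at 37.2 CPM per kb. MTRNR2L2, a nuclear copy of mitochondrial ribosomal RNA, lay at 59.3 CPM and 682 CPM per kb, with an error of 0.52 in the authors' deposited table. That table holds no mitochondrially encoded row. With a length of 87 bases, its value per kb is uncertain. MTRNR2L8, at 1303 bases, lay at 78.4 CPM and 60.2 CPM per kb. Of 15130 detected genes with a length, 430 (2.84%) shared 20% or more of their exon bases with a gene of higher level, as did 7 of 753 detected list genes, among them AMIGO3, with 99.7% of its exon bases in GMPPB on the same strand.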
